A study of Drosophila melanogaster with 3 samples.

Results

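The genes described here encode RNA polymerase II and the Mediator complex of Drosophila melanogaster. They were taken by name, as every gene whose Ensembl symbol begins with Polr2 or with MED and a digit. This gave 38 of the 18164 genes annotated on the 6 chromosome arms used. The 13 with Polr2 symbols are called polymerase genes here, and the 25 with MED symbols Mediator genes. Subunits whose genes have other symbols are not among the 38. Binding was mapped by ChIP-seq (immunoprecipitation of chromatin followed by sequencing) in whole embryos of mixed sex, collected 0 to 16 h after laying. All embryos came from 1 transgenic line that stably expresses CG16863 with a C-terminal GFP tag, and an antibody against GFP was used. The 3 samples are biological replicates of this single group, so there is no contrast between conditions, no control library is used here, and signal that open start sites may give without the tagged protein cannot be told apart from its binding. The files used are peak lists: 1 relaxed list per replicate (24378 peaks in replicate 1, 30000 in replicate 2 and 29769 in replicate 3), 1 relaxed list of the pooled replicates (23571 peaks), and the 3953 peaks that passed the authors' analysis of the irreproducible discovery rate (IDR). A gene is called bound where an IDR summit, the highest point of a peak, lay within 500 bp of an annotated transcription start site of the gene. Read depth is not known from these lists.

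RNA polymerase II makes the messenger RNA of every protein-coding gene. Mediator is a large complex that carries signals from transcription factors at enhancers and promoters to the polymerase, and is built from head, middle and tail modules around the scaffold subunit MED14. A detachable kinase module completes it in some of its forms. Cells of all types need both complexes, and early embryos are also supplied with maternal copies of many such factors.

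Of the 38 genes, 12 were bound (31.6%, 95% Wilson interval 19.1 to 47.5, which covers counting error only). Over all 13945 protein-coding genes the bound share was 17.1%. The bound genes were Polr2B, Polr2C, Polr2F, Polr2H and Polr2J of the polymerase (5 of 13) and MED4, MED6, MED7, MED16, MED17, MED27 and MED30 of Mediator (7 of 25). A further 13 genes had a pooled relaxed peak at a start site that did not reach the IDR set, 6 had a peak in a replicate list alone, and 7 had none in any list. Among genes with any pooled relaxed peak at a start site, 12 of the 25 polymerase and Mediator genes were bound (48%), against 34.2% of all 7578 such genes. This background share lies inside the 95% Wilson bounds of the family, 30.03 and 66.5%. Of the 38 genes, 35 have a single annotated start site, and 11 of these 35 were bound (31.4%, 95% Wilson interval 18.6 to 48.0). Among the 10246 protein-coding genes with 1 start site 12.9% were bound. The shares of 17.1% and 12.9% lie below the intervals of the family beside them. These intervals treat genes as independent draws and are no test. The list was chosen as a gene family with results of these data known, and no test of it was made.

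**Figure D1:**
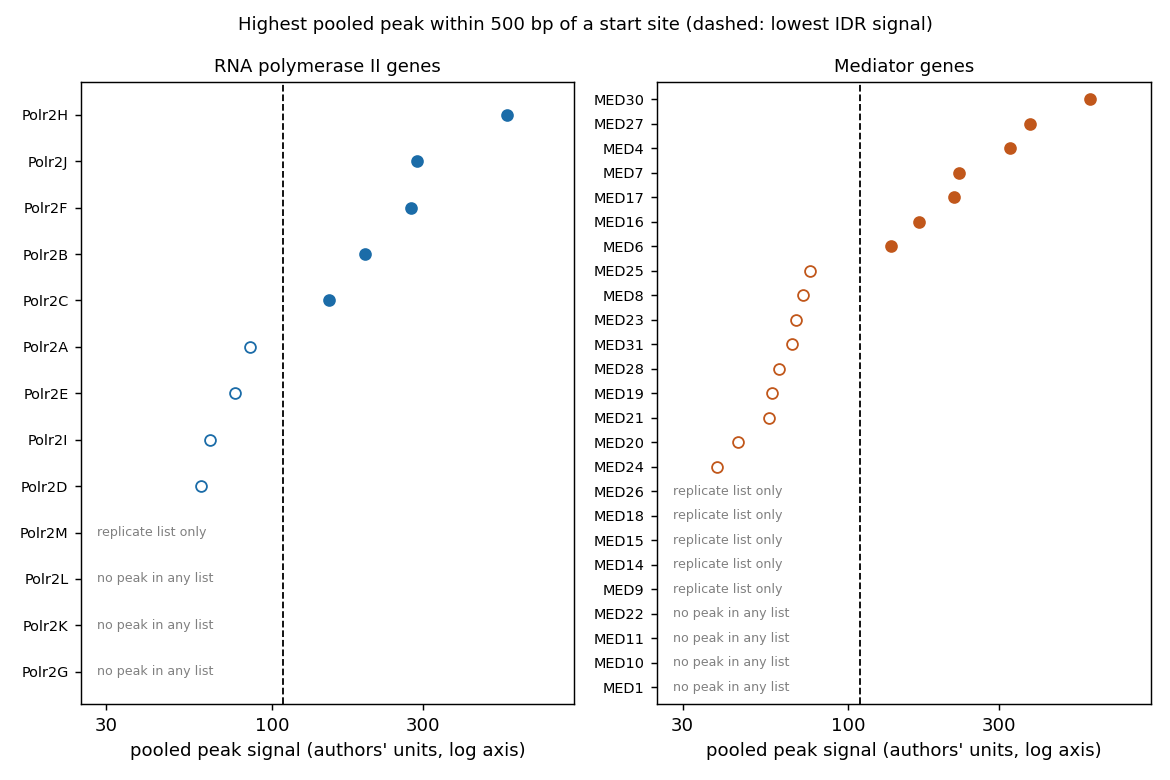
Highest pooled peak within 500 bp of a start site for each of the 38 genes, with the polymerase genes on the left and the Mediator genes on the right. The x axis is the authors' pooled peak signal on a log scale, filled points are IDR peaks, open points are relaxed peaks only, and the dashed line is the lowest signal in the IDR set, 108.6. No gene lies between 85.2 and the dashed line, and 13 genes have no pooled peak.

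The values on either side of the IDR threshold were as follows. The weakest IDR peak of the 12 genes, at MED6, had a pooled signal of 136.6. The strongest peak that stayed below the IDR set, at Polr2A, had a signal of 85.2, and the lowest signal in the whole IDR set was 108.6. No gene of the 13 with a relaxed pooled peak alone had a pooled q value of 0.01 or less, and their signals ran from 38.4 to 85.2 with a median of 64.0. Low signals and weak q values at these genes follow largely from the IDR cutoff that left them out.

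Among the polymerase genes 5 of 13 were bound, beside 17.1% of all protein-coding genes. Counts in the single groups of subunits are small and are given as a description. The genes for the pair of subunits around which the enzyme is assembled were both bound. Polr2C and Polr2J encode this pair, which corresponds to the alpha subunits of the bacterial enzyme. Polr2J had relative signals of 1.63, 1.54 and 1.61 in replicates 1, 2 and 3, where the relative signal is the peak signal of a replicate divided by that replicate's median over the IDR peaks. Polr2C had 0.513, 1.03 and 0.915, so its replicate 1 lay well below the other two. The replicates of Polr2J all lay above those of Polr2C, with means of 1.59 ± 0.0427 and 0.818 ± 0.270 (SD, n = 3 each). Of the catalytic core, Polr2B, the second-largest subunit, was bound with relative signals of 1.36, 0.998 and 0.996 (mean 1.12 ± 0.210, SD, n = 3). Polr2A, the largest subunit, whose C-terminal repeats carry the phosphorylation marks of the transcription cycle, had only relaxed peaks, with relative signals of 0.382 in replicate 1, 0.444 in replicate 2 and 0.486 in replicate 3.

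Of the 5 subunits that the polymerase shares with RNA polymerases I and III, 2 were bound. Polr2H had relative signals of 3.41, 2.83 and 3.04 (mean 3.10 ± 0.295, SD, n = 3), the highest of the polymerase genes. Polr2F had 1.46, 1.37 and 1.93 (mean 1.59 ± 0.303, SD, n = 3). The third, Polr2E, had a pooled relaxed peak with a signal of 76.4, and the other two, Polr2K and Polr2L, had no peak in any list within 500 bp of a start site. Neither gene of the stalk, the pair of subunits that projects from the enzyme and meets the new transcript, was bound. Polr2D of this pair had a relaxed pooled peak of 59.8 and Polr2G had none. Polr2I, a small subunit that is known in yeast to bear on the accuracy of transcription, had a relaxed pooled peak of 64.0. Polr2M had a peak in the list of replicate 2 alone, with a relative signal of 0.355.

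**Figure D2:**
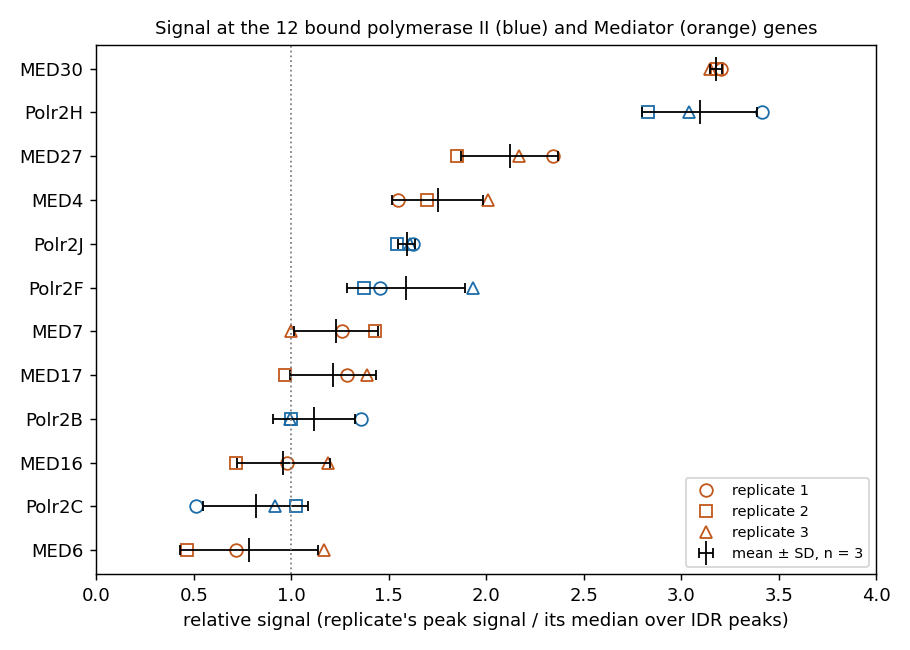
Relative signal at the 12 bound genes, with polymerase genes in blue and Mediator genes in orange. Open symbols are the 3 replicates, the black bar and whiskers are the mean ± SD, and the dotted line is the median of all IDR peaks. MED30 and Polr2H lie apart from the other 10 genes in every replicate.

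Of the Mediator genes 7 of 25 were bound, beside 17.1% of all protein-coding genes and 29.4% of those arranged head to head with a neighbour. Counts in the single modules are small and are given as a description. In the head, which touches the polymerase, 2 of 7 genes were bound. MED17, a central subunit of the head, had relative signals of 1.29, 0.970 and 1.39 (mean 1.22 ± 0.220, SD, n = 3). MED6 had 0.716, 0.468 and 1.17 (mean 0.784 ± 0.355, SD, n = 3), the widest spread of the 12 genes relative to its mean. MED8 (pooled signal 71.8) and MED20 (45.0) had relaxed pooled peaks, MED18 had a peak in replicate 3 alone with a relative signal of 0.252, and MED11 and MED22 had none.

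In the middle module 2 of 9 genes were bound. MED4 had relative signals of 1.55, 1.70 and 2.01 (mean 1.75 ± 0.234, SD, n = 3) and MED7 had 1.26, 1.43 and 1.001 (mean 1.23 ± 0.217, SD, n = 3). The replicates of MED4 all lay above those of MED7. MED31 (pooled signal 66.4), MED19 (57.6) and MED21 (56.2) had relaxed pooled peaks. MED9 and MED26 had peaks in replicate 2 alone, and MED1 and MED10 had none. The scaffold gene MED14 had peaks in replicates 1 and 2 but none in the pooled list.

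The tail module, which meets many activators, had 1 bound gene of 5. This was MED16, with relative signals of 0.977, 0.715 and 1.19 (mean 0.960 ± 0.237, SD, n = 3). MED25 (pooled signal 76.0), MED23 (68.2) and MED24 (38.4) had relaxed pooled peaks, and MED15, a target of activators, had a peak in replicate 2 alone within 500 bp of its start site. MED27, MED28 and MED30 are placed in different modules by different structural work and are given apart here. MED30 had relative signals of 3.21, 3.18 and 3.15 (mean 3.18 ± 0.0299, SD, n = 3), the highest mean and the narrowest spread of the 12 genes. MED27 had 2.34, 1.85 and 2.17 (mean 2.12 ± 0.249, SD, n = 3). MED28 had a relaxed pooled peak of 60.3.

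The 12 bound genes fell into an order that the replicates resolved only in part. MED30 and Polr2H overlapped each other, and all 3 replicates of each lay above all 3 of the other 10 genes. MED27 lay above 7 genes in this way and MED4 above 6. From MED7 downwards, MED7, MED17, Polr2B, MED16, Polr2C and MED6 all overlapped one another. In the IDR set as a whole the MED30 peak ranked 199th and the Polr2H peak 240th of 3953, and the MED6 peak ranked 2885th. Of the 12 peaks, 9 were at or above the median signal of the IDR set and 2 were among its 395 strongest, against 53.9% and 12.6% of the 1985 IDR peaks at any start site. The median relative signal of the 12 was 1.44 ± 0.0544 over replicates, against 1.05 ± 0.0162 for the IDR peaks at any start site that had a matching peak in the replicate (SD, n = 3). These SDs are the spread between replicates and do not measure the spread among genes. The means of the 12 genes ran from 0.784 to 3.18, and the difference in medians was not tested. The Spearman correlation of signal across the 12 genes was 0.860 for replicates 1 and 2, 0.881 for replicates 1 and 3 and 0.762 for replicates 2 and 3. These describe agreement across genes within shared libraries, where genes are no replicates, and carry no p.

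All 12 IDR summits lay upstream of the nearest annotated start site of the bound gene, at -209 to -17 bp with a median of -112 bp. Over all 2592 bound genes, 83.6% had their highest summit upstream, with a median of -125 bp. Among the bound genes that face a neighbour head to head, as most of the 12 do, the share upstream was 86.9%. The 12 summits formed a run from far to near rather than a common position: MED30 at -209 bp, MED17 at -202 bp, Polr2J at -180 bp, MED27 at -153 bp, Polr2H at -149 bp, MED4 at -143 bp and Polr2C at -81 bp, and then MED16 at -37 bp, Polr2F and MED7 at -23 bp, MED6 at -21 bp and Polr2B at -17 bp. MED6 is the one bound gene with several annotated starts: its summit lay upstream of 1 of the 5 and 274 to 1148 bp downstream of the other 4. The replicates placed their own summits within 14 bp of each other at Polr2H and within 17 bp at MED30. They were spread over 61 bp at MED4 and over 89 bp at Polr2B, where the replicate summits were at 4, -85 and -11 bp. With the replicates' own summits, 11, 12 and 10 of the 12 were upstream in replicates 1, 2 and 3, the others lying 3 to 7 bp into the gene.

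**Figure D3:**
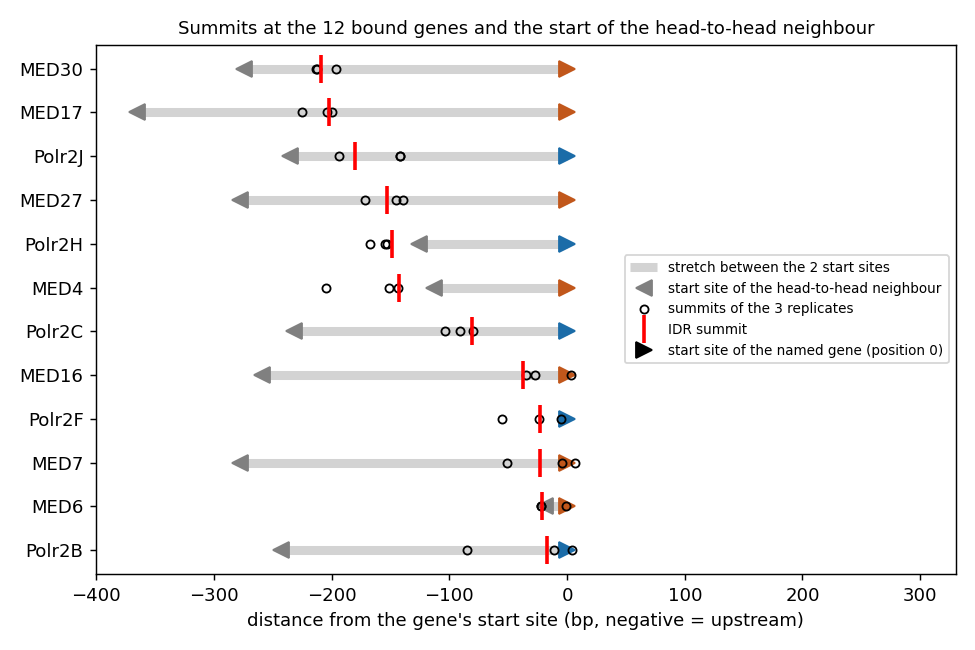
Positions of the summits at the 12 bound genes in bp from the start site of the gene, where negative is upstream. Red bars are IDR summits, open circles the summits of the 3 replicates, coloured arrowheads the start of the named gene and grey arrowheads the start of the nearest head-to-head neighbour. Positions at MED6 are from the nearest of its 5 starts. In 8 of the 11 head-to-head genes the IDR summit lies between both start sites.

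The bound genes were arranged head to head with a neighbour. A gene is counted here as head to head where another gene on the other strand starts at most 1000 bp upstream, which held for 11 of the 12 bound genes (91.7%), against 68.0% of the 2384 bound protein-coding genes. It held for 17 of the 26 unbound genes of the family (65.4%), and for 39.6% of all protein-coding genes. The bound share was 11 of 28 among the head-to-head genes of the family (39.3%, 95% Wilson interval 23.6 to 57.6), beside 29.4% of all 5526 head-to-head protein-coding genes. Among the genes that are not head to head it was 1 of 10 (1.79 to 40.4% by the same interval), beside 9.05% of 8419. Restricted to genes with 1 start site, the shares were 10 of 27, beside 25.2% of all such head-to-head genes, and 1 of 8, beside 5.85% of the others. The counts are small. The background shares lie within the intervals of the family in both arrangements, but intervals this wide could exclude little. The share over all protein-coding genes was 17.1%, below the interval for the whole family, 19.1 to 47.5. None of these intervals is a test, since they treat genes as independent draws. Whether the arrangement bears on the bound share of the family was not tested.

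**Figure D4:**
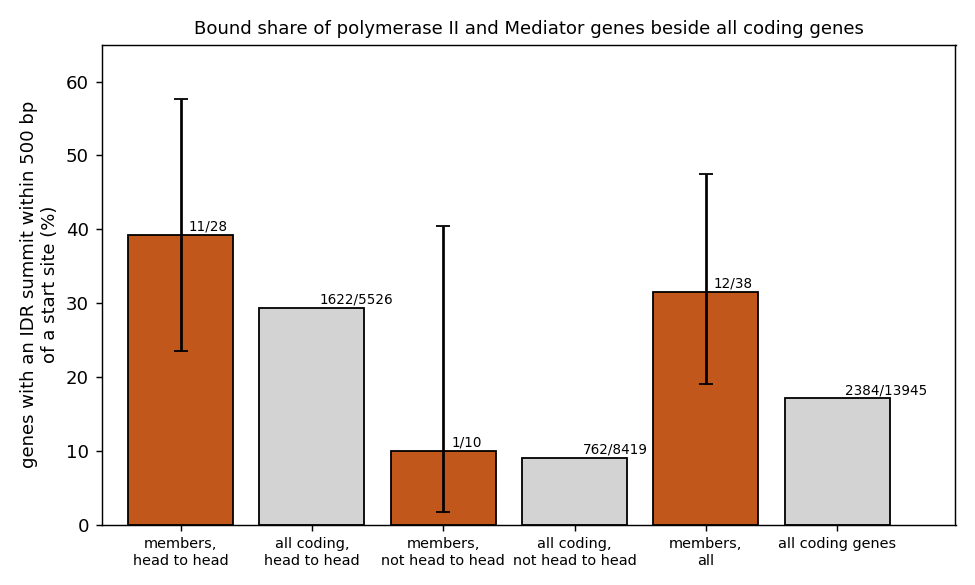
Share of genes with an IDR summit within 500 bp of a start site, for the polymerase and Mediator genes (orange, with 95% Wilson intervals) and for all protein-coding genes (grey, which include them). Numbers above the bars are bound genes over all genes. In the family the share was 39.3% for head-to-head genes, and 1 of 10 of the others was bound.

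Each head-to-head summit could belong to either gene. The start sites were 19 to 365 bp apart, with a median of 243 bp, and all 11 summits had the start of the neighbour within 500 bp. MED30 faces Rev1, a translesion DNA polymerase gene, across 274 bp. MED27 faces elm across 278 bp, and MED7 faces Cap-H2, a condensin subunit gene, across 278 bp. Polr2B faces 140up across 243 bp. Polr2C faces the start shared by PolG2, the accessory subunit gene of the mitochondrial DNA polymerase, and GatC across 232 bp. MED17 faces CG12321 across 365 bp, MED16 faces CG11170 across 259 bp, Polr2J faces CG15141 across 235 bp, and Polr2H faces CG11247 across 126 bp. MED4 faces the antisense RNA gene asRNA:CR43470 across 113 bp, and MED6 faces Naa80, an acetyltransferase gene, across 19 bp. At 8 of these the summit lay between both starts. At Polr2H, MED4 and MED6 it lay past the start of the neighbour, in the 5′ UTR of CG11247 at Polr2H and in an exon of the antisense RNA at MED4. At MED6 it lay both in the 5′ UTR of Naa80 and in that of the 4 longer MED6 transcripts, whose starts lie beyond the start of Naa80. Polr2F was the exception, with no start site of another gene within 500 bp of its summit.

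The sequences below show the upstream stretch at the 8 bound genes of highest mean relative signal outside the right arm of chromosome 2, read 5′ to 3′ on the strand of the gene from the Release 6 genome (dm6 coordinates) and ending at or before the base next to its start site. For head-to-head genes with at most 300 bp between the starts, the stretch between them is given. Bases of annotated UTRs and noncoding exons were left out, which shortened the stretch at MED7 and the window at Polr2F. MED17 is shown by 50 bp on either side of its summit. Capitals mark matches to the 7 motifs searched, named in the next paragraph. The stretches are chr3L:654090-654362 (minus strand) for MED30, chr3L:21728807-21728931 (plus) for Polr2H, chr3R:5654862-5655138 (plus) for MED27, chr3L:7250528-7250639 (minus) for MED4, chr2L:17410407-17410640 (minus) for Polr2J, chr3R:5371745-5371794 (plus) for Polr2F, chr3R:10761033-10761147 (minus) for MED7 and chr3R:18188820-18188920 (plus) for MED17.
MED30: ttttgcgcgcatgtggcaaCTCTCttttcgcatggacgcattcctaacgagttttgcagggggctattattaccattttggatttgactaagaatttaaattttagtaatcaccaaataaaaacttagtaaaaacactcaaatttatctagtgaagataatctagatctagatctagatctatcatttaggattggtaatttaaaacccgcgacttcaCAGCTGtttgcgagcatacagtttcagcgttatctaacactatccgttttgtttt
Polr2H: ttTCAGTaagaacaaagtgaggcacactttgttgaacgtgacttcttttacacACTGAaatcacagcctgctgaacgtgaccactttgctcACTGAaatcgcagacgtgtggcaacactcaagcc
MED27: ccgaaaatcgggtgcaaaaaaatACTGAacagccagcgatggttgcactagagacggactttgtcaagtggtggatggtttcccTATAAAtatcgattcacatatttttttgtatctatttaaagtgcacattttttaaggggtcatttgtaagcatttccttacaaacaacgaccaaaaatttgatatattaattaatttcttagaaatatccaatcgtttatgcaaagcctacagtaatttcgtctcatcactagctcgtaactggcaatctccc
MED4: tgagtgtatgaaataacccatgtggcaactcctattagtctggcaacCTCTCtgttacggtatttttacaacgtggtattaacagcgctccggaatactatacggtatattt
Polr2J: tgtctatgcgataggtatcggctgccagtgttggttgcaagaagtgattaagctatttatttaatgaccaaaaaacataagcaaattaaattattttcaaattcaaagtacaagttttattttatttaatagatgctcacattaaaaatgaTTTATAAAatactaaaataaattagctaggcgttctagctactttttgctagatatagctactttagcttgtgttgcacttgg
Polr2F: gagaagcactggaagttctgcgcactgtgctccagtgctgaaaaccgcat
MED7: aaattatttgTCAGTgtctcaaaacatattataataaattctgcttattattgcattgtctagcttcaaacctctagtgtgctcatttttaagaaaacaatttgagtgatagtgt
MED17: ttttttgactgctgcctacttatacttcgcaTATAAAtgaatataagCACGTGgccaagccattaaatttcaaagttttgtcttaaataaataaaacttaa
The IDR summit is base 65 of the stretch at MED30, 125 at MED27, 55 at Polr2J, 28 at Polr2F, 93 at MED7 and 51 at MED17, and lies outside the stretch at Polr2H and MED4.

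Matches to 7 motifs were counted within 50 bp of the 12 summits and, as background, of all IDR summits at start sites. The motifs were the DNA replication-related element (DRE, TATCGATA), the core promoter element called Motif 1 (GGTCACAC), an E-box (CAGCTG), the TATA box (TATAAA), the core of the initiator (TCAGT), the GAGA factor motif (GAGAG) and a palindromic E-box (CACGTG), each as these exact letters on both strands. TATAAA was in 4 of the 12 windows, those of Polr2H, MED27, MED17 and Polr2C, against 16.7% of the 1985 IDR windows at start sites. Within 100 bp of the summits the count was also 4, against 31.1% of all such windows. TCAGT was in the window of Polr2H (17.7% of all), GAGAG in that of MED30 (10.1%) and CACGTG in that of MED17 (1.36%). TATCGATA, GGTCACAC and CAGCTG were in none of the 12, against 4.33%, 1.56% and 5.59% of all. The median GC content of the 12 windows was 36.1%, against 36.6% for all IDR windows at start sites, and single windows ran from 28.7% at MED17 to 59.4% at MED6.

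The positions of the 12 peaks in dm6 were as follows. On 3L the MED30 peak covered 654176 to 654418, the Polr2H peak 21728730 to 21728890 and the MED4 peak 7250455 to 7250884. On 3R the MED27 peak covered 5654771 to 5655200, the Polr2F peak 5371557 to 5371986 and the MED7 peak 10760840 to 10761269. Also on 3R were the peaks of MED17 (18188655 to 18189084), Polr2B (14125559 to 14125988) and MED6 (9767621 to 9768050). On 2L the Polr2J peak covered 17410371 to 17410800 and the Polr2C peak 13833041 to 13833470, and on 2R the MED16 peak covered 22182886 to 22183315. By arm, 6 of the 14 genes of the family on 3R were bound, beside 651 of all 3421 protein-coding genes there, and 3 of 10 on 3L, beside 481 of 2739. On 2L 2 of 4 were bound, beside 436 of 2657, and on 2R 1 of 6, beside 462 of 2852. On X 0 of 3 were bound, beside 349 of 2196, and MED26 on chromosome 4 was unbound, beside 5 bound of 80. The arms were not tested against each other. The peaks of MED30 (243 bp) and Polr2H (161 bp) were narrower than the other 10, which were all 430 bp wide, the median of the IDR set. Peaks under 430 bp made up 14.7% of the IDR set and 89.6% of its 395 strongest.

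Unbound genes had weak and scattered peaks. In the replicate lists they had 49 peaks within 500 bp of a start site, with relative signals of 0.188 to 0.594. All lay below the median of the IDR peaks in the same replicate, which follows largely from the IDR cutoff that left these genes out. Of the 13 genes with a relaxed pooled peak alone, 8 had a peak in all 3 replicates. Single-replicate peaks at a q value of 0.01 or less lay at 3 unbound genes, MED8, MED23 and Polr2E, in replicate 2 for all 3 and in neither of the other replicates. Head-to-head arrangement was also found among these genes. MED20 faces Trf, a gene for a relative of the TATA-binding protein, and Polr2I faces su(Hw), an insulator protein gene, and both had relaxed pooled peaks alone.

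Genes of the machinery around the polymerase were bound too, again with most of them head to head. Of 69 genes in 7 related lists 24 were bound (34.8%, 95% Wilson interval 24.6 to 46.6), beside 17.1% of all protein-coding genes. Over the protein-coding genes that are head to head with a neighbour the share was 29.4%. Of the 24, 22 were head to head, beside 68.0% of all bound protein-coding genes. How many of all 69 are head to head is not given here. The counts of single lists are small and are given as a description. TFIIH, the factor that opens the promoter DNA and phosphorylates the polymerase, had 6 of 10 genes bound. Its Ssl1 gene had relative signals of 11.2, 10.7 and 11.8 at a summit shared with Chro, and its kinase gene Cdk7 had 1.56, 1.37 and 1.84 at a summit shared with snf. Genes for pausing and elongation factors were bound in 6 of 15 cases, led by Nelf-E, a subunit of the negative elongation factor (2.03, 2.74 and 3.32), whose summit also lay within 500 bp of a start of RpL14. General factors were bound in 3 of 8 cases, with TfIIA-L at 1.20, 1.05 and 1.04. TFIID genes were bound in 3 of 15 cases, led by Taf4 (1.86, 1.42 and 1.91). Of the kinase module of Mediator, skd alone of 4 was bound (1.27, 1.15 and 1.12), at a summit at -440 bp from its start and shared with Pdss2. Polymerase I genes were bound in 2 of 7 cases, with Polr1D highest (1.52, 1.71 and 1.52), and polymerase III genes in 3 of 10. The summit at Polr3F had a matching peak in replicate 3 alone, and that at Tfb4 in replicates 2 and 3.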

How the data were processed

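Peak lists of 3 biological replicates of embryos (0 to 16 h) were used as deposited, on the dm6 build. Fragments of 200 to 800 bp were selected after sonication, per the labels. Per the README of each sample, every relaxed list derives from the alignments and a further file common to the replicates. The aligner, peak caller, IDR settings and read depth were not given in the sources used here. Heights of deposited peaks are in signal units whose level differs between replicates. Each deposited peak also carries a −log10 q value.

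Start sites came from Ensembl release 115 (BDGP6.54), without transposable elements. All 38 genes had the same coordinates in the RefSeq table of Release 6, from which sequence was read. The summit with the highest pooled signal was used for each bound gene. A replicate's value was its highest peak with a summit within 100 bp, divided by its median over the IDR summits with such a peak (55.2, 70.0 and 54.0 in replicates 1, 2 and 3). Every replicate value was found at the 12 genes. No test was made, since there is 1 group. Functional groups of subunits and the related lists were assigned from general knowledge. The members, the lists and the groups were chosen with earlier results of these data known. Every gene of the 38 is accounted for, and in each related list up to 3 bound genes could be named. The values of 1 gene of these lists are not reported here. The code for the distance rule was checked with 1 simulated summit per gene of the family at a known offset. The signed distance was checked only at genes with 1 start site. This check does not bear on the assignment of a summit between head-to-head neighbours. Lists on dm3 were not used. Python 3.11.15, numpy 2.4.6, scipy 1.17.1 and matplotlib 3.10.9 were used.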

Additional observations from a re-analysis of the deposited data

How the results depend on the processing

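The count of 12 bound polymerase II and Mediator genes lay between 9 and 13 under the alternatives tried. The share over all genes can change with each setting too and is not given here. The counts below, also those of the related lists, therefore do not place these genes against that share. It was 10 with a start-site window of 200 bp, which left out MED17 and MED30, and 13 with 1000 bp, which added MED15. It was 9 with IDR peaks at or above the median signal, which left out MED6, MED16 and Polr2C, 11 with the start of the longest transcript alone, which left out MED6, and 12 with pooled peaks at a q value of 0.01 or less. With 1 replicate left out, and strong peaks required in both that remained, it was 10 to 11: MED6 was lost without replicate 1, Polr2C without replicate 2 and both without replicate 3. The count in the related lists was 18 to 20 in this way, and 13 instead of 24 with IDR peaks at or above the median signal, a smaller set by construction. The median relative signal of the bound genes was 1.41 to 1.45 with 1 replicate left out, and 2.64 when signals were divided by the median of the 10000 strongest peaks, which is a lower divisor by construction. MED30 ranked first and Polr2H second except without replicate 2, where they changed places. The median summit position moved from -112 bp to -59 bp with the 200 bp window, which leaves out the 2 farthest summits. With the start of the longest transcript alone it was -143 bp. All summits kept in these 2 settings lay upstream. The matches of motifs to bound genes numbered 7 within 50 bp of the summits, 11 within 100 bp, 2 within 25 bp and 18 from 250 bp before to 50 bp after the start, as the length searched differs. Of 72 single-gene signals under alternatives, 58 moved by less than 1 SD, but this count was largely fixed in advance. Leaving out 1 of 3 replicates cannot move a mean by 1 SD, and the lower divisor raised every signal by construction. Matching within 50 bp moved MED30 from 3.18 to 3.09 and Polr2J from 1.59 to 1.55, each by more than 1 SD. This reflects their small SDs, 0.0299 and 0.0427, since most other genes fell by a like factor, such as Polr2H from 3.10 to 3.01. MED4 and Polr2B rose instead, from 1.75 to 1.80 and from 1.12 to 1.15. All other signals moved by less than 1 SD when matched within 50 or 200 bp. Within 50 bp, 2 replicate values had no peak. No paired analysis was possible because there is 1 group. Read depth, which limits the precision of each signal, is not known.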

Other observations

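Some unbound genes lay near IDR peaks outside the 500 bp window. The nearest was at MED15, whose start site was 519 bp from an IDR summit at 2L 472494. This summit lay between MED15 and CG4297, the neighbour it faces, and within 500 bp of the start of CG4297. Its relative signals were 2.34, 2.90 and 2.53 (mean 2.59 ± 0.289, SD, n = 3), above the mean of 10 of the 12 bound genes, so that the call for MED15 depends on the width of the window. The other unbound genes had their nearest IDR summit 1722 bp or more away. Of the 26, 9 had one within 5000 bp, and the median distance was 8038 bp. The farthest was 2020316 bp, for MED21 at 3L 25114924 to 25115946. No IDR summit lay inside a gene of the family beyond the window at its start sites.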
